A study of Mus musculus with 54 samples.

Results

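Klf4, Esrrb, Zfp42 and Tfcp2l1 are 4 genes of the naive pluripotency network of mouse embryonic stem cells, and their chromatin was followed through directed differentiation to heart muscle. The members are all enriched regions that overlap 4 fixed mm9 windows: chr4:55460000-55560000 for Klf4, chr12:87685000-87880000 for Esrrb, chr8:44365000-44410000 for Zfp42 and chr1:120510000-120600000 for Tfcp2l1. They number 879 of the 1590704 regions in 46 lists, of which 261 lie in the Klf4 window, 373 in the Esrrb window, 78 in the Zfp42 window and 167 in the Tfcp2l1 window. The genes were proposed with their calls in these lists in view, so every call, length and height below is a description and carries no test. No region crossed an edge of the Klf4, Esrrb or Tfcp2l1 window. At Zfp42, 5 regions crossed the right edge, and the nearest region left out began 300 bases beyond it, in the H3K4me1 list of stem cell replicate 1.

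Chromatin immunoprecipitation followed by sequencing was run on bulk cultures of a 129/Ola mouse line sampled 4 times. The day 0 cells are embryonic stem cells (ESC), those of day 4 mesoderm (MES), those of day 5.3 cardiac precursors (CP) and those of day 10 cardiomyocytes (CM). No stage carried a genetic change by the labels, and the later stages had been cultured as embryoid bodies with Activin A, BMP4 and VEGF and then plated with VEGF, basic FGF and FGF10. H3K4me3 and H3K27ac had 2 libraries at each stage and H3K4me1 had 3. H3K27me3 had 2 ESC libraries and 3 at each later stage, and RNA polymerase II phosphorylated on serine 5 had 1 ESC library and 2 at each later stage. The share of cells in each culture that had reached its named stage was not measured here, so fewer cells with a mark and less of the mark per cell cannot be told apart in any comparison below. Markers of heart cells were not checked, since the lists carry positions and no gene names.

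As background, naive pluripotency is the state of the inner cell mass, held in culture by leukaemia inhibitory factor and by inhibition of differentiation signals. Klf4, a Krüppel-like zinc finger factor, and Tfcp2l1, a factor of the CP2 family, are targets of leukaemia inhibitory factor acting through Stat3. Esrrb is an orphan nuclear receptor whose gene is kept down by Tcf7l1, and Zfp42, also called Rex1, is a zinc finger protein widely used as a marker of the naive state. Klf4 is also known to act in differentiated tissues, among them skin, gut and blood vessels. H3K4me3 marks promoters, H3K27ac marks active promoters and enhancers, and H3K4me1 is broad over enhancers. H3K27me3 is laid down by Polycomb repressive complex 2, and serine 5 phosphorylation marks polymerase that has started transcription.

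The promoters of the 4 genes differ in base composition, and they are printed because the results turn on H3K4me3 and the polymerase, marks of promoters. They are RefSeq sequences of GRCm38.p6, a later build than the mm9 of the lists, and no position was carried from one build to the other. Each runs 5′ to 3′ on the strand of the gene, from 250 bases before to 50 bases after a transcription start. All 4 genes matched, Esrrb with 2 starts, and which start belongs to which mm9 region was not determined. Capitals mark exact matches, on either strand, to the TATA box, written TATAAA, for TATA-binding protein, to the GC box, written GGGCGG, that zinc finger factors such as Sp1 bind, and to the octamer of Oct factors, ATTTGCAT. The Esrrb half-site AAGGTCA was also searched and had no match in any of the 5.
Klf4, chr4:55532426-55532725, minus strand: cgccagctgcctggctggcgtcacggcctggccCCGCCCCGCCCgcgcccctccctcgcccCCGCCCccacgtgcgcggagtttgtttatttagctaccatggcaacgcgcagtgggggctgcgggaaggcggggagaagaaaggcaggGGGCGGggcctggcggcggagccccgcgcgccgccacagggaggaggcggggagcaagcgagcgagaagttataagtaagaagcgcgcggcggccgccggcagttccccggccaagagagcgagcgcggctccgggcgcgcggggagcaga
Esrrb, first start, chr12:86360867-86361166, plus strand: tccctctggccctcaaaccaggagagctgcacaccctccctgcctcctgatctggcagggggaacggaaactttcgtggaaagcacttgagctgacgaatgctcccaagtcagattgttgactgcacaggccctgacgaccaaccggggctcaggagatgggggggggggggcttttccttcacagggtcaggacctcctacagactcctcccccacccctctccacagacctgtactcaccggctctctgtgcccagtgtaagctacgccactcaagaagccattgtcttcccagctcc
Esrrb, second start, chr12:86421394-86421693, plus strand: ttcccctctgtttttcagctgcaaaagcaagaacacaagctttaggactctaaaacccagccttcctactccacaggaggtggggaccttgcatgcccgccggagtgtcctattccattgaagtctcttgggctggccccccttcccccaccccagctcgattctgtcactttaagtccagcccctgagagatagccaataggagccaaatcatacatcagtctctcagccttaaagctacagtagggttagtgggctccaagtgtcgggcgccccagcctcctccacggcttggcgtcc
Zfp42, chr8:43306960-43307259, minus strand: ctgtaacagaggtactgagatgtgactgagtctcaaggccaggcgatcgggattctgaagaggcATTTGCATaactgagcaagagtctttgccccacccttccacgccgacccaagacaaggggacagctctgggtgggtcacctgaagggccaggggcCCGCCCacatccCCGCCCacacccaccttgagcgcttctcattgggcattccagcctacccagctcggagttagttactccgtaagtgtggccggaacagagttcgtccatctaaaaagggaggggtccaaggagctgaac
Tfcp2l1, chr1:118627695-118627994, plus strand: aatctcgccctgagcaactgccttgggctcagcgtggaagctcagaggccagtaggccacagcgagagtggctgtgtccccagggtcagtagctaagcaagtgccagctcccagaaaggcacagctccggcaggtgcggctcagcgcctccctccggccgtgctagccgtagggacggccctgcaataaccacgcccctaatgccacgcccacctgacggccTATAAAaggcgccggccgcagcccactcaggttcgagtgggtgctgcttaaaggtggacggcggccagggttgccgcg

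The Klf4 promoter held 40 CpG dinucleotides in its 300 bases and 74.3% G and C, at percentile 96.5 of 32851 mouse promoters by CpG count, against a median of 7 CpG over all. The Tfcp2l1 promoter held 21 CpG (percentile 76.9) and the Zfp42 promoter 11 (percentile 60.4), while both Esrrb promoters held 7 (percentile 51.4). Klf4 had 4 GC boxes and Zfp42 had 2, where 35.7% of all promoters hold at least 1. Tfcp2l1 alone among the 5 had the TATA box, found in 13.6% of all promoters, and Zfp42 alone had the octamer, found in 1.74%. These letters are matches and not shown to be bound.

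The lists held between 2929 and 96999 regions, their read depth is unknown, and lowest heights ran from 9 to 39, so heights are given as percentiles, the percent of regions in the same list at or below that height. Percentiles place a region within its own list, and since lists differ in length, a difference in percentile between stages is not a measured change in the mark. Each region had at least 5 times the background count and no height passed 400. The 2 ESC H3K4me3 lists were longer (54528 and 42092 regions) than the 6 later ones (21264 to 28880). Of the H3K27me3 lists, ESC replicate 3 with 3252 regions and CM replicate 3 with 2929 were short. All libraries of the polymerase were made with altered sonication and wash buffers, and the CM H3K27ac libraries carry a stem cell label in 1 field against CM in their titles, sources and day. The part of these differences in the results was not tested.

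Across the 4 windows, 4 of the marks covered far less length after the ESC stage and H3K27me3 covered more. The length inside H3K4me3 regions was 8788 ± 407 bases at MES, 7788 ± 1503 at CP and 8638 ± 1432 at CM, against 70750 ± 14071 at ESC (SD, n = 2 each). For H3K27ac the sum over the windows was 6413 ± 1573 bases at MES, 5875 ± 813 at CP and 8088 ± 937 at CM, against 88613 ± 6452 at ESC (SD, n = 2 each). H3K4me1 covered 12233 ± 5606 bases at MES, 14025 ± 13405 at CP and 12092 ± 1508 at CM, against 79783 ± 8497 at ESC (SD, n = 3 each). No later library of these 3 marks reached the lowest ESC library. The polymerase covered 3475 and 6150 bases in MES, 4925 and 7200 in CP and 3625 and 5825 in CM, against 121250 bases in the single ESC library. In CM the windows thus kept 12.2% of their ESC mean for H3K4me3, 9.13% for H3K27ac, 15.2% for H3K4me1 and 3.90% for the polymerase, beside 57.9%, 74.3%, 95.7% and 22.2% over the whole lists. H3K27me3 ran the other way, with 10025 ± 5329 bases at MES, 17975 ± 10632 at CP and 3483 ± 3824 at CM (SD, n = 3 each), against 1650 ± 2086 bases at ESC (SD, n = 2). Those means were 608%, 1089% and 211% of ESC in the windows, beside 295%, 502% and 167% over the whole lists, and the CM range of 300 to 7725 bases overlapped the ESC range of 175 to 3125.

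**Figure D1:**
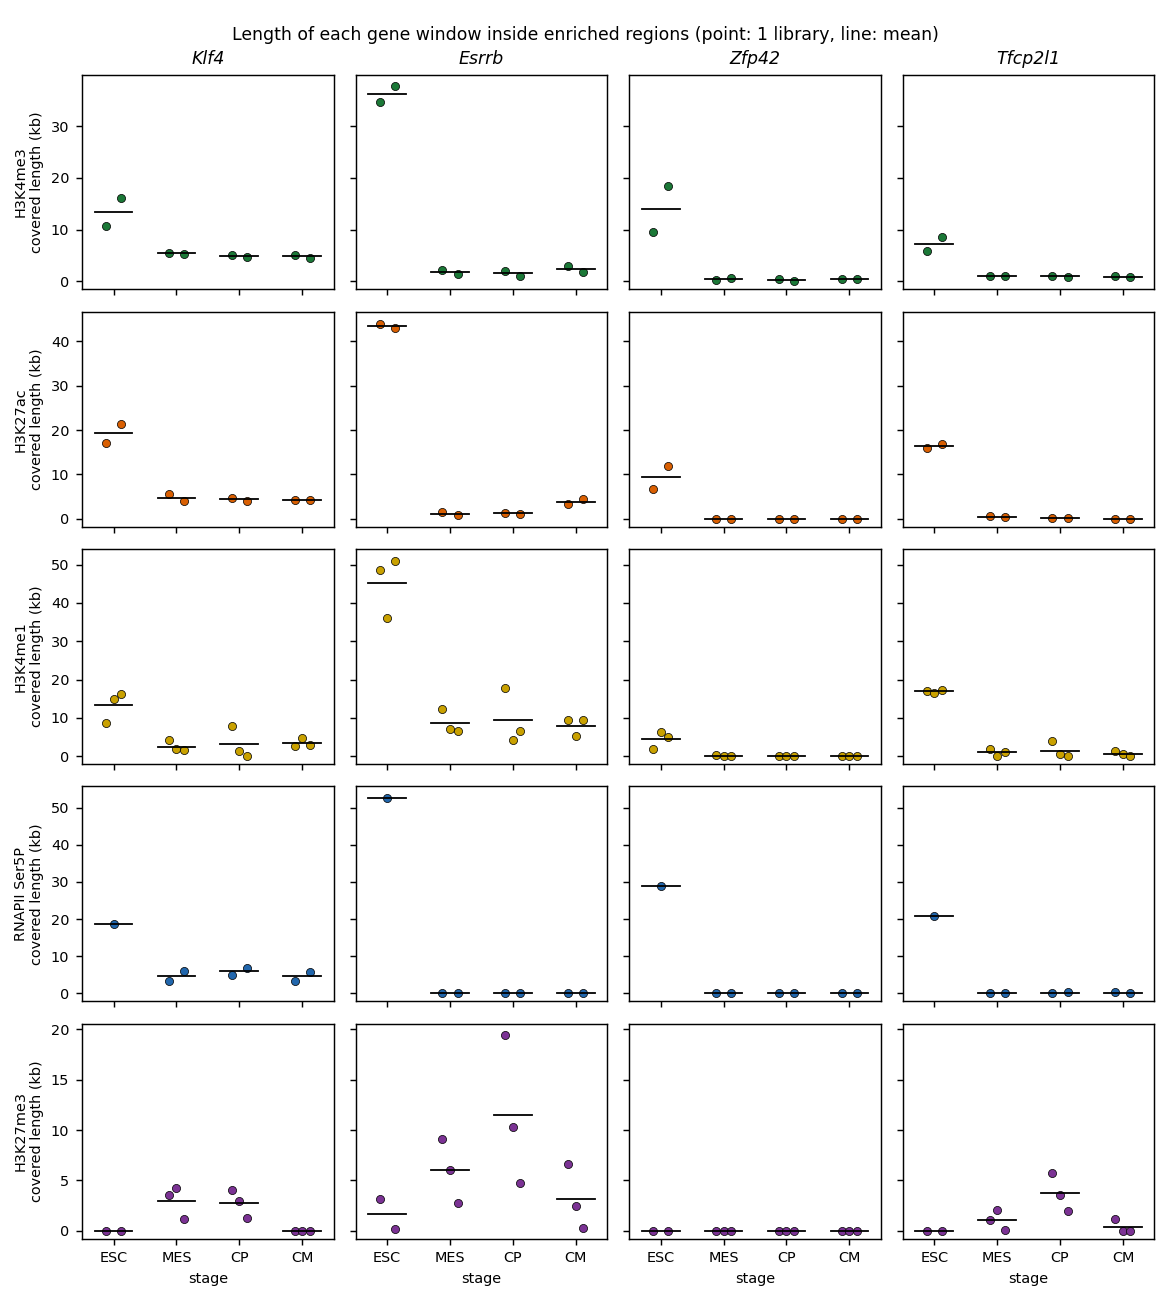
Kilobases of each gene window inside enriched regions, by mark (rows) and gene (columns), over the stages ESC, MES, CP and CM; each point is 1 library and each line the mean of its stage, and the polymerase has 1 ESC library. For H3K4me3, H3K27ac, H3K4me1 and the polymerase the ESC mean is the highest of the 4 stages in all 16 panels, while H3K27me3 is highest in MES at Klf4 and in CP at Esrrb and Tfcp2l1, and has no region at Zfp42.

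Regions were also counted after joining those that overlap or touch across all libraries of a mark. A joined region is called lost when every ESC library held it and no library of the later stage did, and gained in the opposite case. From ESC to CM, 25 of 32 H3K4me3 regions in the windows were lost (78.1%), beside 46.5% of all 35114 such regions. The lost share was 17 of 18 for H3K27ac (94.4%, beside 53.9%), 18 of 24 for H3K4me1 (75%, beside 65.4%) and 59 of 63 for the polymerase (93.7%, beside 81.6%). Most of the loss was already there in MES, where the counts were 26 of 32 for H3K4me3 (81.2%, beside 44.4%) and 13 of 18 for H3K27ac (72.2%, beside 42.5%). H3K4me1 had 16 of 24 lost by MES (66.7%, beside 49.2%) and the polymerase 58 of 63 (92.1%, beside 58.3%). CP lay close to MES, with 25 of 32 for H3K4me3 (78.1%, beside 44.4%), 15 of 18 for H3K27ac (83.3%, beside 50.8%), 14 of 24 for H3K4me1 (58.3%, beside 54.8%) and 59 of 63 for the polymerase (93.7%, beside 71.4%). The 1 H3K27me3 region of the windows that both ESC lists held was lost at none of the 3 later stages, where 3.93% of all such regions were lost by MES, 4.99% by CP and 12.6% by CM. The genes were chosen for such calls, so nothing is read from the gap between a share and its background.

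The counts depend on how finely a list splits its regions and on what every ESC library must hold. Taking only an equal number of tallest regions from each list, 7 of 12 H3K4me3 regions of the windows were lost to CM (58.3%, beside 17.6% of all). Without replicate 2, whose ESC lists held 42092 H3K4me3 and 32222 H3K27ac regions beside 54528 and 73186 in replicate 1, 66 of 73 H3K4me3 regions were lost to CM (90.4%, beside 61.7% of all), 87 of 91 H3K27ac regions (95.6%, beside 79.3%) and 36 of 40 H3K4me1 regions (90%, beside 71.8%). Lost by MES were then 67 of 73 (beside 59.1% of all), 82 of 91 (beside 62.1%) and 31 of 40 (beside 50.5%). Lost by CP were 66 of 73 (beside 59% of all), 85 of 91 (beside 74.9%) and 30 of 40 (beside 57.5%). Without replicate 1, H3K4me1 gave 28 of 34 lost to CM (beside 69.2% of all) and 29 of 34 to both MES (beside 61.1%) and CP (beside 65.3%), and H3K27ac gave 20 of 22 lost to MES (beside 62.5%). The ESC polymerase has a single library, so its calls have no replicate.

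**Figure D2:**
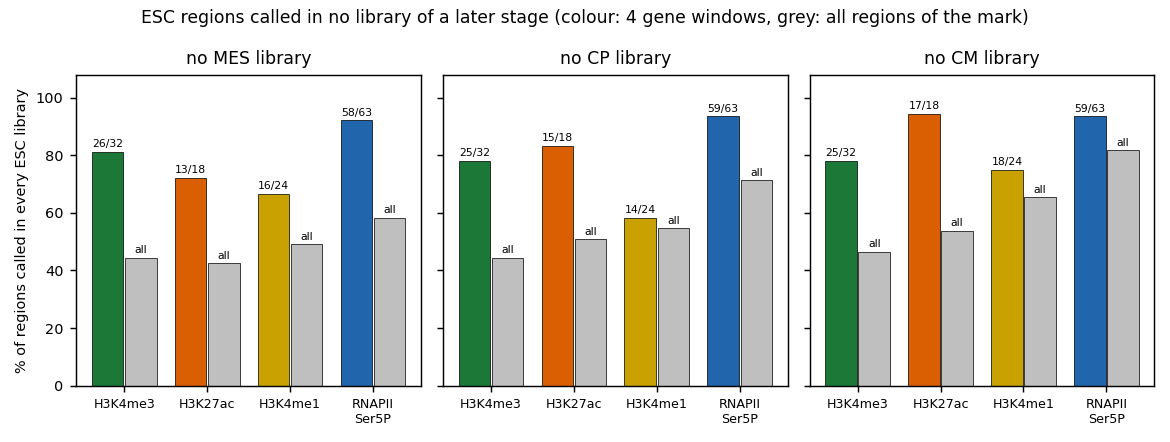
Percent of the regions called in every ESC library that no library of MES, CP or CM held, for H3K4me3, H3K27ac, H3K4me1 and serine 5 phosphorylated RNA polymerase II. Coloured bars are the 4 gene windows with their counts and grey bars are all regions of the mark on chromosomes 1 to 19 and X. The coloured bar is the taller in all 12 pairs, for genes that were chosen for such calls.

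Klf4 was the only one of the 4 whose main H3K4me3 region kept the polymerase in every library of every stage. That region, chr4:55540926-55547150, carried 5500 and 6225 bases of H3K4me3 in the ESC lists, then 4275 to 4750 at MES, 4025 to 4300 at CP and 3750 to 4300 at CM. Its H3K4me3 height percentile was 88.6 to 93.5 at ESC, 62.3 to 70.4 at MES, 65.2 to 65.7 at CP and 68 to 73 at CM. The deposited heights, which are not scaled between libraries, were 232 and 331 at ESC, 239 and 289 at MES, 236 and 151 at CP and 193 and 139 at CM, and those of MES lie within the range of ESC. The polymerase there stood at percentile 87.9 at ESC, 88.9 to 98.4 at MES, 96.0 to 98.8 at CP and 89.2 to 98.9 at CM. These polymerase lists held 48837 regions at ESC and 11332 to 37721 later. H3K27ac was called there in all 8 libraries, at percentile 81.4 to 92.4 at ESC, 86.2 to 93.8 at MES, 94.6 to 96.8 at CP and 90.7 to 94.6 at CM. In ESC replicate 2 it reached only the right end of the region, over 1450 bases.

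H3K27me3 was called over the same Klf4 region in the middle of the time course only. No ESC library held it, all 3 MES and all 3 CP libraries did, and none of the 3 CM libraries did. The H3K27me3 regions there totalled 3200, 3125 and 1150 bases in MES, at percentiles 94.3, 96.2 and 97.4, and 1875, 2600 and 1100 bases in CP, at percentiles 93.2, 89.4 and 80.3. The 3 CM lists held 20484, 11925 and 2929 regions and those of MES 20012, 12929 and 11037. Their lowest heights were 15, 22 and 14 in CM and 11, 17 and 11 in MES, and they covered 11.6, 7.48 and 0.411 Mb in CM and 14.1, 14.6 and 5.83 Mb in MES. The ESC lists held 9373 and 3252 regions over 7.32 and 0.477 Mb. The part of these list differences in the calls was not tested. This was 1 of 3 H3K27me3 regions gained in the windows from ESC to MES among 4 present in every MES library (75%, beside 31.7% of all), and the same count held from ESC to CP (75%, beside 45.4%). It was also the 1 region lost again in CM of the 4 present in every CP library (25%, beside 18.2%). Without replicate 1, 3 of 4 were lost from CP to CM (75%, beside 38.6% of all), and without replicate 2, 2 of 5 (40%, beside 24.2%). Without replicate 3, 5 of 6 were gained by MES (83.3%, beside 51.3% of all) and 9 of 10 by CP (90%, beside 67.5%), and 7 of 10 were lost from CP to CM (70%, beside 41%). H3K4me3, the polymerase and H3K27me3 were therefore called over 1 Klf4 region in every MES and CP library, and whether the same cells carried all 3 was not measured.

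A second ESC cluster lay at lower coordinates than the Klf4 peak, and little of it was called in MES. Its main stretch, chr4:55482326-55495275, ended -49.3 kb from the peak and was 1 unbroken H3K27ac region of 12925 bases in ESC replicate 2, at rank 23 by length of 32222, and 12 regions totalling 8025 bases in ESC replicate 1. H3K27ac there covered 375 bases in 1 MES library and none in the other, 475 and 725 bases in CP and none in either CM library. The ESC polymerase list held 8925 bases there, at percentile 98.3, and no later polymerase list held any. H3K4me3 covered 3725 and 6625 bases of it in the ESC lists and none in the 6 later ones. H3K4me1 covered 4175, 4800 and 5500 bases in ESC, and 1 of 3 libraries at each later stage still held some, with 1000 bases in MES, 2325 in CP and 1250 in CM. No H3K27me3 was called there at any stage.

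Klf4 also had a short constant H3K4me3 region, chr4:55527176-55528400, of 1050 and 1225 bases in ESC and 725 to 975 bases in the 6 later lists. H3K27ac was called over it in 1 of 2 ESC libraries and in all 6 later ones, and the polymerase only in 1 MES library, at percentile 35.5. H3K27me3 was called there in 2 of 3 MES and 2 of 3 CP libraries, in regions totalling at most 150 and 975 bases, and in no ESC or CM library. To the right of the main region, 2 H3K4me1 regions were gained by CM. At chr4:55555476-55556550 no ESC or MES library, 2 of 3 CP libraries and all 3 CM libraries had a call, at CM percentiles of 83.8 to 96.3. At chr4:55552926-55554900 the counts were 0 of 3, 0 of 3, 1 of 3 and 3 of 3, at CM percentiles of 40.3 to 78.0. They were 2 of the 3 gained H3K4me1 regions among 6 in the windows present in every CM library (50%, beside 55.5% of all). Without replicate 1, 5 of 7 were gained (71.4%, beside 75.1%).

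**Figure D3:**
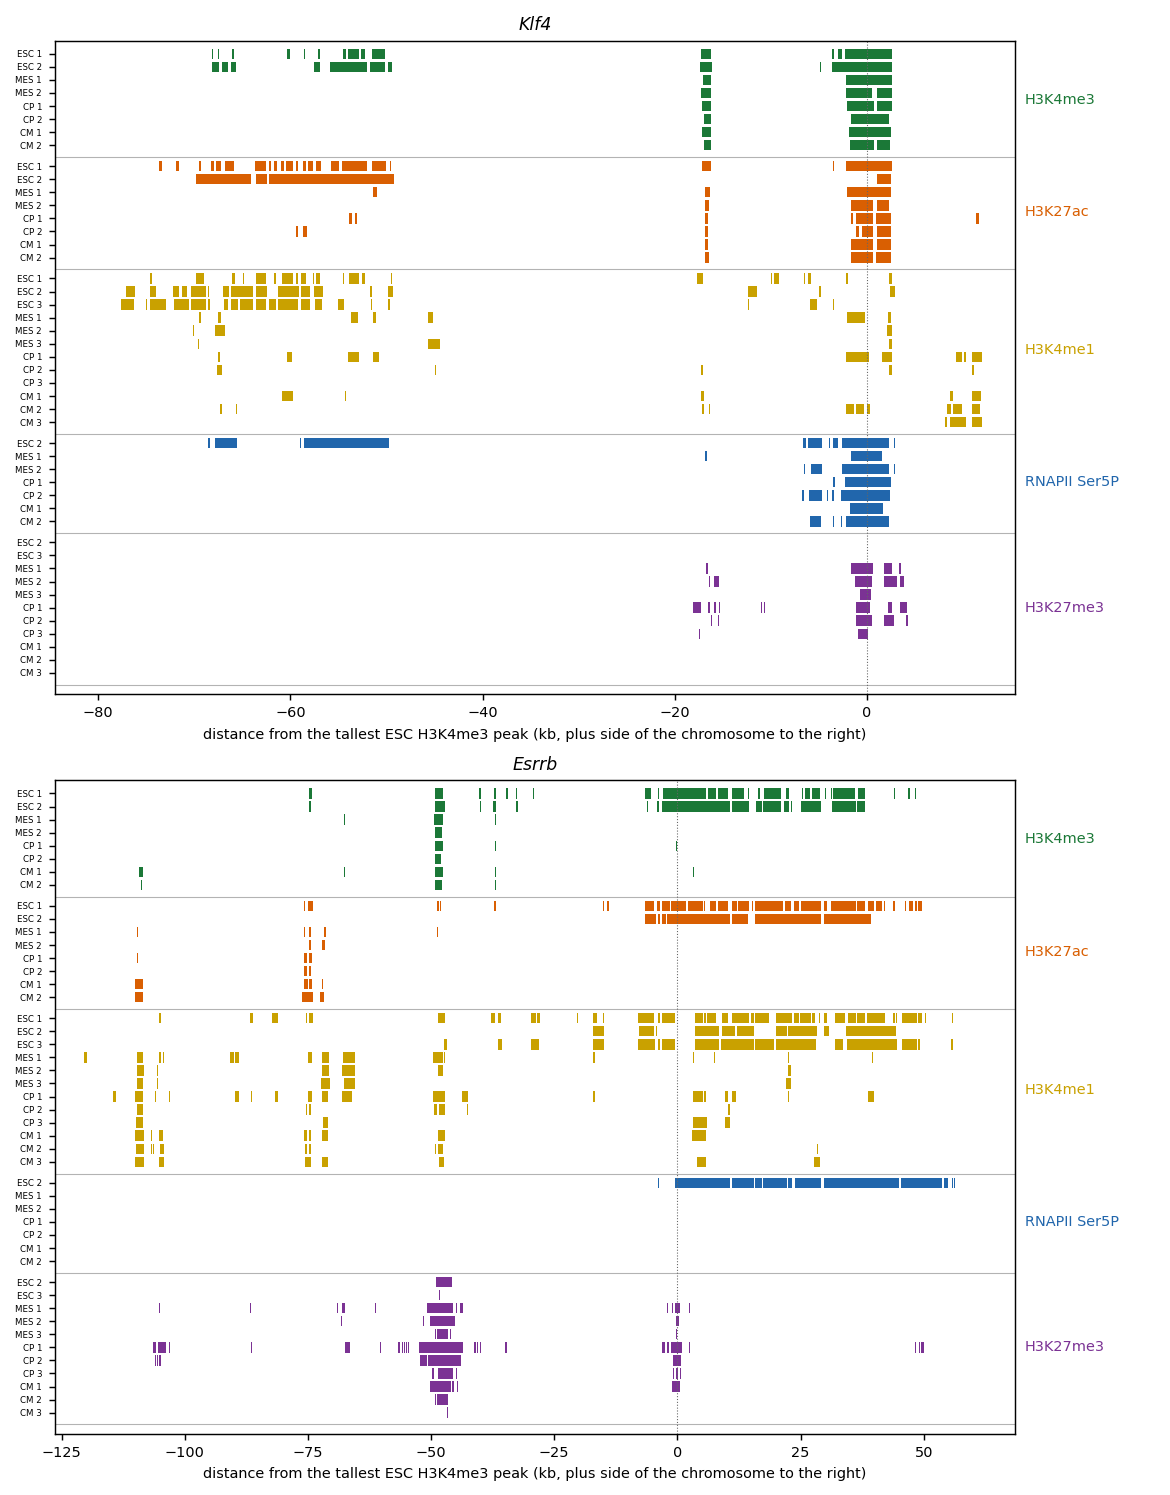
Enriched regions in the Klf4 and Esrrb windows, 1 row per library grouped by mark (stage and replicate at left); the axis is the distance in kb from the tallest ESC H3K4me3 peak of the window, and each block is 1 called region. At Klf4 the blocks around 0 are present at all stages for H3K4me3, H3K27ac and the polymerase, and H3K27me3 blocks there are seen in MES and CP only, while at Esrrb the blocks from 0 to about 56 kb are dense in ESC and sparse or absent later.

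Esrrb, in the longest of the 4 windows, had the most bases covered in ESC by H3K4me3, H3K27ac, H3K4me1 and the polymerase, and no polymerase call after ESC. H3K4me3 covered 34700 and 37700 bases of the window at ESC, 2150 and 1475 at MES, 2050 and 1075 at CP and 2900 and 1900 at CM. Its tallest region, chr12:87808301-87822000, was a single block of 13700 bases in ESC replicate 2, at rank 4 by length of 42092, and its longest piece in ESC replicate 1 was 8825 bases, at rank 6 of 54528. After ESC there was no H3K4me3 over it in MES, 275 bases in 1 CP library and 75 bases in 1 CM library, at percentiles 19.3 and 9.48. The ESC polymerase list ran over 52525 bases of the window in 13 regions, the last ending 56.4 kb from the peak, and all 6 later lists held none. All 13 were lost to CM, where 34 of 35 at Tfcp2l1, 5 of 5 at Zfp42 and 7 of 10 at Klf4 were lost, beside 81.6% of all regions of the polymerase.

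In ESC replicates 1 and 2, the last H3K27ac region of the Esrrb window ended 49.6 and 39.4 kb from the tallest H3K4me3 peak. The last H3K4me3 region ended at 48.4 and 38.1 kb, and the last polymerase region at 56.4 kb. H3K27ac covered 44025 and 43050 bases at ESC, 1425 and 900 at MES, 1400 and 1100 at CP and 3275 and 4450 at CM. Its tallest ESC region, chr12:87841101-87851250, held 8550 to 9675 bases of H3K27ac in ESC, 25 bases in 1 MES library and none in CP or CM. H3K4me1 over that stretch stood at percentile 97.8 to 99.5 in the 3 ESC lists, and no CM list held it. Over the tallest H3K4me3 region, H3K4me1 was still called in 1 of 3 MES, 3 of 3 CP and 2 of 3 CM libraries. Over the window as a whole, H3K4me1 covered 45200 ± 7975 bases at ESC, 8692 ± 3238 at MES, 9467 ± 7216 at CP and 7983 ± 2410 at CM (SD, n = 3 each), more than the 3 other marks of activity had left on average at each later stage.

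A separate H3K4me3 region of Esrrb, chr12:87761976-87764200, between -49.4 and -47.2 kb from the tallest peak, was called in all 8 libraries and carried H3K27me3 in all 11. Its H3K4me3 pieces were 1675 to 1975 bases at ESC, 1475 to 1800 at MES, 1075 to 1675 at CP and 1375 to 1600 at CM. The H3K27me3 regions over it totalled 3125 and 175 bases at ESC, 5450, 5125 and 2400 at MES, 9075, 6575 and 3450 at CP and 4175, 2375 and 125 at CM. The values of 175 and 125 bases came from the 2 short lists, and the 9 other libraries ranked the region at percentile 90.8 or above. No polymerase list of any stage, ESC included, held this region. It is thus the only H3K27me3 region of the 4 windows present in every ESC library, and it was not lost at any later stage.

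The tallest Esrrb region also had H3K27me3 calls after ESC, over a small part of its length. At chr12:87810051-87812300 no ESC library, all 3 MES libraries, all 3 CP libraries and 1 of 3 CM libraries had a call. The H3K27me3 pieces over the whole H3K4me3 region totalled 1550, 675 and 125 bases in MES, 3350, 1550 and 900 in CP, and 1550, 0 and 0 in CM. Their percentiles were 58.2 to 78.6 in MES and 74.1 to 89.7 in CP, below those of the constant region at the same stages (93.2 to 97.5 in MES and 90.8 to 99.2 in CP).

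Esrrb held the gained H3K4me3 region of the windows, both gained H3K27ac regions and 1 of the 3 H3K4me1 regions gained by CM. One site, chr12:87701251-87703050, had no H3K4me1 call in the 3 ESC libraries and a call in all 9 later ones, at percentiles of 61.3 to 86.9 in MES, 65.1 to 89.6 in CP and 54 to 77.5 in CM. H3K27ac followed over chr12:87701301-87702975, in neither ESC library, 1 MES library, 1 CP library and both CM libraries, at CM percentiles of 65.0 to 66.9. H3K4me3 was called inside it, over chr12:87702076-87702950, in both CM libraries and in none of the 6 others, at percentiles 24.5 and 27.5. That was the 1 gained H3K4me3 region among 7 in the windows present in every CM library (14.3%, beside 4.94% of all), and without replicate 2 the count was 2 of 9 (22.2%, beside 16.8%). No polymerase call was made there at any stage.

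A second site of gain, chr12:87738926-87740050, had H3K27ac in 0 of 2 ESC, 2 of 2 MES, 1 of 2 CP and 2 of 2 CM libraries. It and the first site were the 2 gained H3K27ac regions among 5 in the windows present in every CM library (40%, beside 34.6% of all), and 5 of 6 were counted as gained without replicate 1 (83.3%, beside 67.1%). H3K4me1 over chr12:87739001-87740800 was called in none of the ESC libraries, 3 of 3 in MES and 2 of 3 in both CP and CM. Another H3K4me1 site, chr12:87743376-87746000, was called in 3 of 3 MES libraries at percentiles 88.0 to 88.9, then in 1 of 3 CP libraries and in no ESC or CM library. The 3 H3K4me1 sites were the 3 gained by MES among 6 in the windows present in every MES library (50%, beside 44.8% of all), and the H3K27ac site was the 1 gained by MES among 5 (20%, beside 21.5% of all). Without replicate 1, 4 of 6 H3K27ac regions were gained by MES (66.7%, beside 52.2%), and without replicate 2, 3 of 12 (25%, beside 54.1%). Whether these sites act on Esrrb or on a neighbour was not measured, and RefSeq places Gpatch2l and Vash1 on either side of it.

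Zfp42 came closest to losing every mark, and H3K27me3 was not called in its window in any of the 11 lists. H3K27ac covered 6825 and 12000 bases in ESC, and none of the 6 later libraries had a region. The polymerase covered 29000 of the window's bases in the ESC list and none in the 6 later ones. Its longest piece, chr8:44368926-44386500, ran for 17575 bases at percentile 99.7, at rank 66 by length of 48837. H3K4me1 covered 1725, 6350 and 4975 bases in ESC, 250 bases in 1 MES library, 150 bases in 1 CP library and none in CM.

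What remained at Zfp42 was a narrow piece of H3K4me3. The main region, chr8:44386951-44393425, held 5400 to 6475 bases in ESC at percentiles 86.5 and 93.9. The later pieces were 375 and 725 bases in MES, 575 bases in 1 CP library, none in the other CP library, and 500 and 400 bases in CM. Their percentiles were 24.5 to 30.7 in MES, 35.8 in CP and 20.7 to 33.4 in CM, the lowest of the 3 genes that still had H3K4me3 over the tallest ESC region in both CM libraries. All 5 of its H3K27ac regions and all 4 of its H3K4me1 regions present in every ESC library were lost by MES, beside 42.5% and 49.2% of all regions of those marks.

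**Figure D4:**
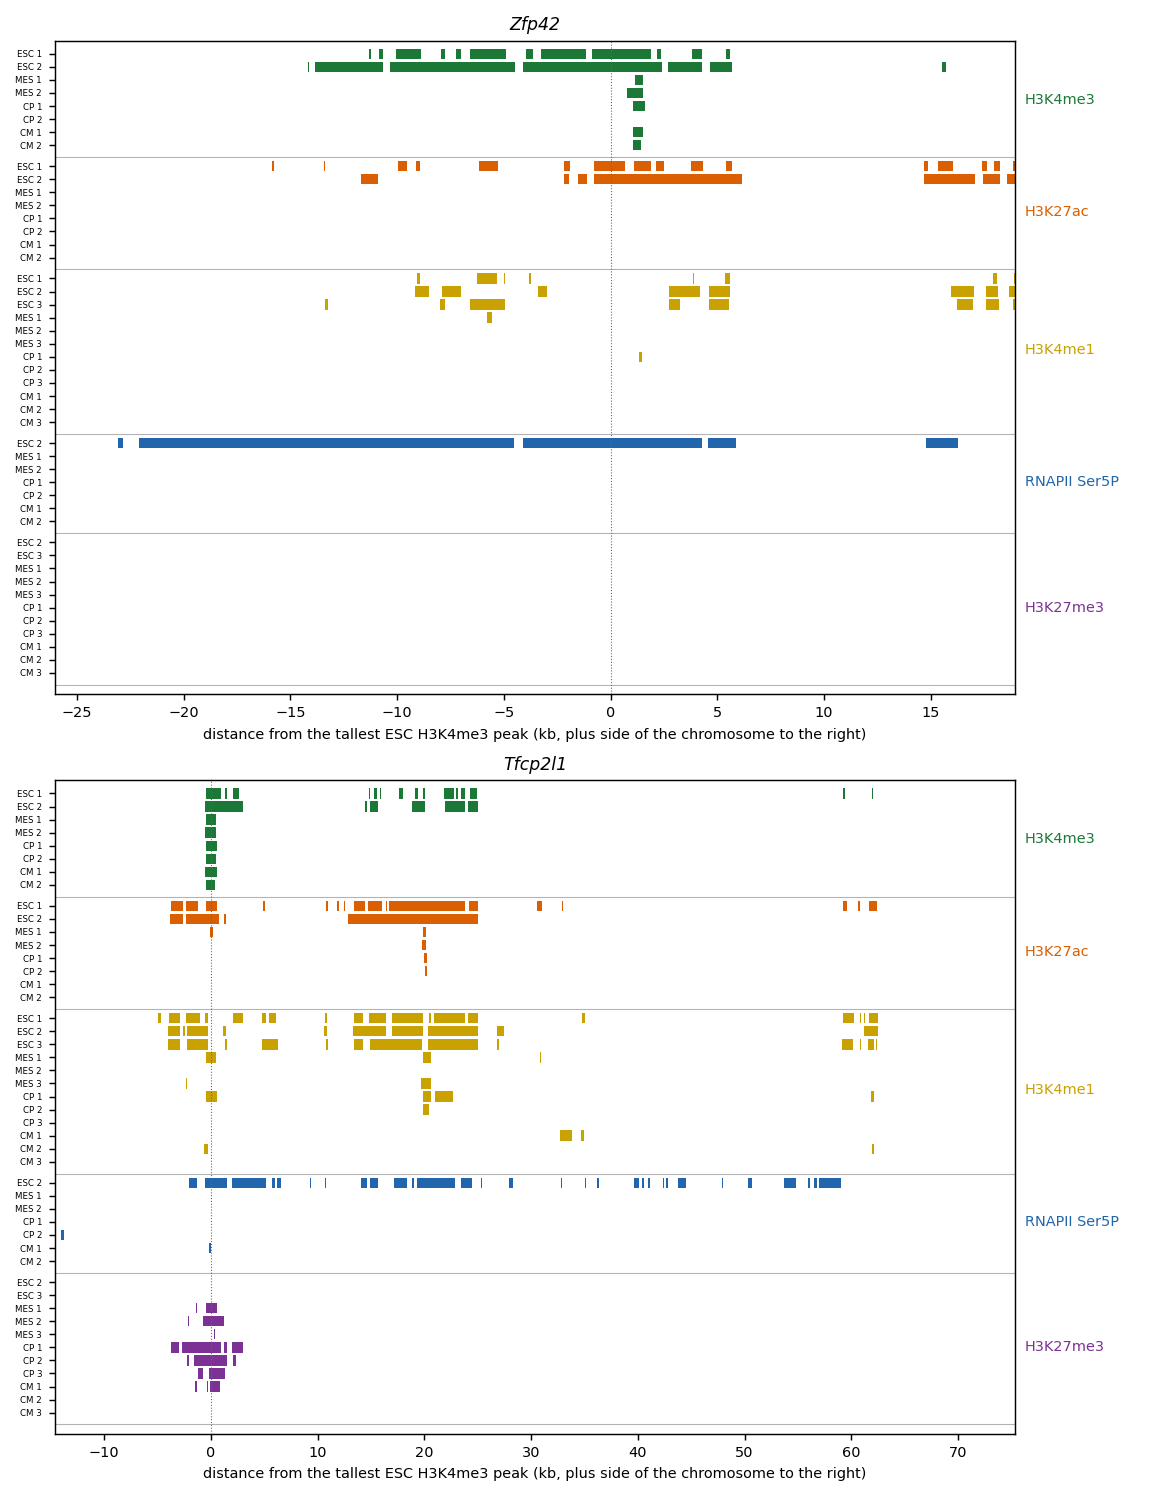
Enriched regions in the Zfp42 and Tfcp2l1 windows, 1 row per library grouped by mark (stage and replicate at left); the axis is the distance in kb from the tallest ESC H3K4me3 peak of the window, and each block is 1 called region. At Zfp42 a single short H3K4me3 block just right of 0 is left in 5 of the 6 later libraries and the H3K27me3 rows are empty. At Tfcp2l1 after ESC H3K4me3 is 1 narrow block at 0 over which H3K27me3 is called in all MES and CP libraries, over 25 bases only in MES replicate 3.

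Tfcp2l1 had a narrow H3K4me3 region in all 8 libraries, and H3K27me3 was called over it after ESC. The region, chr1:120524051-120527600, held 2125 and 3550 bases in ESC at percentiles 98.4 and 96.7. It held 975 and 1050 bases at MES, 1025 and 900 at CP and 1050 and 850 at CM, at percentiles of 49.5 to 67.3. The polymerase was called there in the ESC list at percentile 97.9, in no MES or CP list and over 250 bases of 1 of 2 CM lists at percentile 60.8. H3K27me3 over chr1:120521901-120526100 was called in no ESC library, all 3 MES libraries, all 3 CP libraries and 1 of 3 CM libraries. The percentiles were 17.5 to 86.7 in MES, 74.1 to 93.5 in CP and 77.9 in CM. In MES replicate 3 the call was 25 bases at height 11, the lowest height of that list. The H3K27me3 regions that overlap the H3K4me3 region totalled, at full length, 1025, 2000 and 25 bases in MES, 4900, 3400 and 1525 in CP, and 975, 0 and 0 in CM. H3K27ac over the same H3K4me3 region was held by both ESC libraries, 1 of 2 MES libraries over 275 bases and none of CP or CM.

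The long ESC domain of Tfcp2l1 lay 12.8 to 25.0 kb from the tallest H3K4me3 peak. H3K27ac formed 1 region of 12225 bases there in ESC replicate 2, chr1:120537451-120549675, at rank 35 by length of 32222, and pieces of 10375 bases in all in ESC replicate 1. Its later pieces were 275 to 350 bases in MES and 175 to 250 in CP, and no CM library held it. H3K4me1 in this domain stood at percentiles of 99.0 to 99.9 in the 3 ESC lists. It was still called there in 2 of 3 MES and 2 of 3 CP libraries, at percentiles of 50.1 to 83.9, and in no CM library. The ESC polymerase list covered 7425 bases of it, and no H3K27me3 was called there at any stage. The ESC polymerase calls of the window numbered 35, were at most 3600 bases long, and ran from -2.06 to 59.5 kb around the peak.

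Set side by side at the tallest ESC H3K4me3 region of each gene, the 4 genes ended at different points. In CM, H3K4me3 was present in 2 of 2 libraries at Klf4, Zfp42 and Tfcp2l1 and in 1 of 2 at Esrrb. The polymerase was present in 2 of 2 CM libraries at Klf4, 1 of 2 at Tfcp2l1 and 0 of 2 at Esrrb and Zfp42. H3K27me3 was present in all 3 CP libraries at Klf4, Esrrb and Tfcp2l1 and in none at Zfp42, and in CM in 0 of 3 at Klf4, 1 of 3 at Esrrb and Tfcp2l1 and 0 of 3 at Zfp42. By CpG count of the RefSeq promoters the order was Klf4, Tfcp2l1, Zfp42 and Esrrb, and by the mean length of H3K4me3 left in the window in CM, as a share of ESC, it was Klf4 (36.3%), Tfcp2l1 (13.2%), Esrrb (6.63%) and Zfp42 (3.21%). The window shares take in regions other than the tallest. At the tallest region itself, Esrrb held 12475 to 13700 bases of H3K4me3 in ESC and at most 75 in CM. Zfp42 held 5400 to 6475 bases there in ESC and 400 to 500 in CM. Which printed Esrrb start belongs to which region was not determined, nor whether either lies at the tallest region. With 4 genes these orders are a description only.

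**Figure D5:**
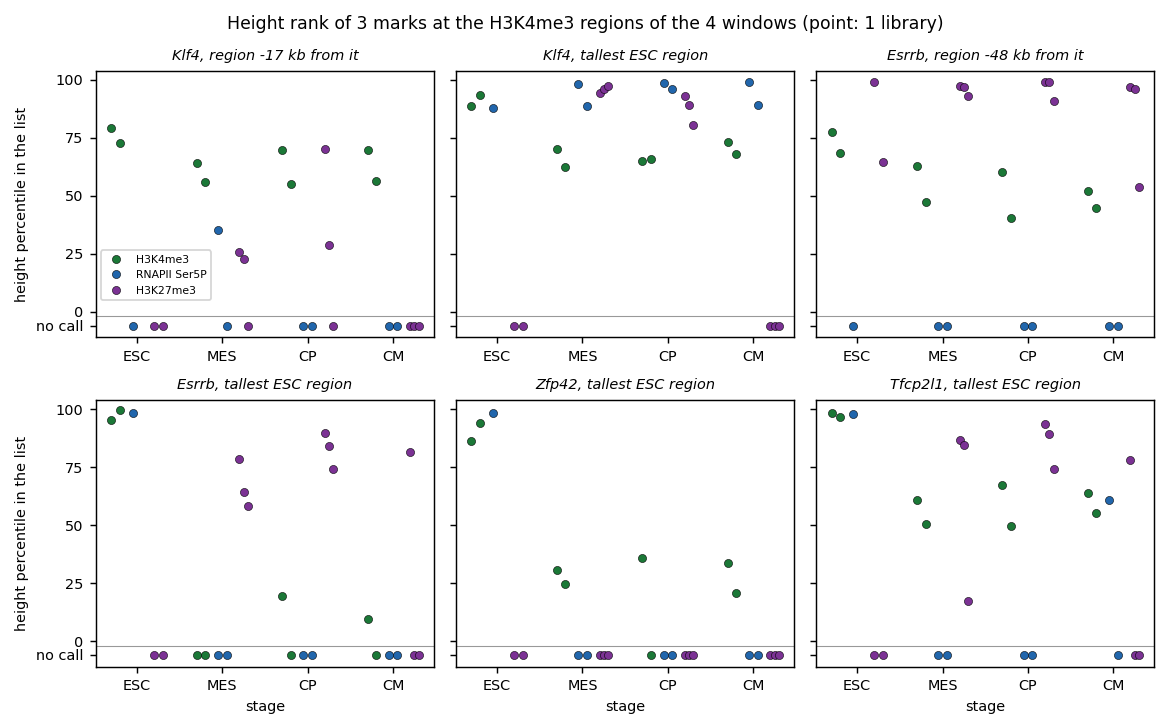
Height percentile within the list (0 to 100) of H3K4me3, serine 5 phosphorylated RNA polymerase II and H3K27me3 at 6 H3K4me3 regions of the windows, by stage; each point is 1 library, and points in the bottom band are libraries with no call. At the main Klf4 region the polymerase is at 87.9 or above within its own list in all 7 libraries, and the constant Esrrb region has no polymerase call but H3K27me3 in all 11 libraries.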

How the data were processed

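The members and lists were chosen with earlier results of these data known. The study covers 54 samples, of which 46 have a list of enriched regions, and 8 whole-cell extract samples without one were not used. Reads were aligned with Bowtie to mm9, per the submitters' processing notes, and regions were called in each library by a tool that is not given in the sources used here. Per the file headers, each deposited list gives start, end, length in bases, peak position, peak height and target and background counts per region. Height and both totals are signal values as deposited by the authors, whose scaling is not stated, so heights were ranked only within a list. Read depth is unknown, so no interval or floor is given. Starts were converted to 1-based positions, and chromosomes 1 to 19 and X were kept.

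An overlap of at least 1 base was a call. Covered length was clipped to the window. Lengths of H3K27me3 regions over a named H3K4me3 region are full lengths, also where they reach beyond it. Regions of a mark that overlapped or touched were joined over its libraries, and lost or gained needed all libraries of one stage and none of the other. Named regions are the tallest ESC region of each gene and mark, those gained in every library of a later stage, and the H3K4me3 regions called in every library. The count of all regions lost from ESC to CM was checked with simulated regions added to the deposited H3K4me3 lists. Gains, the gene windows and the other marks were not checked in this way. No test was run. Replicates are biological per the series design text. Python 3.11.15, numpy 2.4.6, pandas 2.3.3 and matplotlib 3.10.9 were used.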

Additional observations from a re-analysis of the deposited data

How the results depend on the processing

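Over 15 counts and 111 alternatives, 76 stayed within 1.5 times the reported count and 35 moved. Counts have no sign that could turn. The 76 take in an overlap setting, given below, that leaves every count the same by construction. They also take in counts that were 0 as reported and stayed 0 when a replicate number was left out. Those are the polymerase gains by CM and the H3K27me3 counts. The 76 therefore overstate how stable the counts are. With an equal number of tallest regions per list, losses to MES were 7 for H3K4me3 and 17 for the polymerase, and losses to CM were 7 for H3K4me3, 10 for H3K4me1 and 16 for the polymerase. With regions of at least 500 bases, losses to MES were 12 and 27, losses to CM were 12 for H3K4me3, 11 for H3K4me1 and 27 for the polymerase, and gains by CM were 0 for H3K4me3 and 1 for H3K27ac. With a target of at least 10 times background, losses to MES were 8 for H3K4me3, 8 for H3K27ac, 0 for H3K4me1 and 22 for the polymerase, and losses to CM were 8, 8, 0 and 21. Gains by CM for H3K4me3, H3K27ac and H3K4me1 were then 0. No H3K4me1 region of the windows passed that threshold in every ESC library, so H3K4me1 was left with nothing to count. These alternatives keep fewer regions by construction. The counts here show only how far the reported counts shift, and not how the windows compare with all regions.

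Leaving out each replicate number in turn, losses to MES ranged from 35 to 67 for H3K4me3, 20 to 82 for H3K27ac and 19 to 31 for H3K4me1. Losses to CM ranged from 34 to 66, 21 to 87 and 21 to 36. Gains by CM ranged from 1 to 2, 2 to 5 and 4 to 5. Fewer libraries then had to hold a region, and these ranges are likewise not set beside all regions here. ESC had the longest covered length in 16 of 16 pairs of gene and mark without H3K27me3 as reported, and in 14 of 16 at 10 times background, where H3K4me1 at Klf4 and Esrrb were the exceptions. The genes were chosen with these calls in view, so this tally is a description only. Of single covered lengths, 391 stayed within 1 SD and 53 moved. Leaving out a library cannot shift the mean of its stage by 1 SD, so those settings could not move a length. Lengths of 0 that stayed 0 also count among the 391, which therefore overstate how stable the lengths are. Joining regions within 1 stage only and leaving out the short H3K27me3 lists were chosen after seeing the data and moved no count of the 15 past 1.5 times. The H3K27me3 counts among the 15, losses to MES and CM and gains by CM, were all 0 as reported. The H3K27me3 gains by MES and CP and the loss from CP to CM are not among the 15, so nothing follows for them. Requiring an overlap of 50% of the shorter region gives the same counts by construction. No paired analysis was possible because the results come from no test. Unknown depth and ESC lists with more regions for H3K4me3 limit how far lengths and percentiles compare between stages.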
